A study of Rattus norvegicus with 12 samples.

Results

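The comparison of hypoxia and reoxygenation (H/R) with normoxia covered 8 of the 12 RNA-seq libraries of the series, 4 of H/R with an empty vector and 4 of the normoxic control. Its libraries were chosen by their labelled group, with no measured value used. The cells were H9C2, an established line of myoblasts from rat heart, labelled as wild type and as 1 batch. Control cells were kept in normal oxygen and received no vector. H/R cells carried an empty lentiviral vector and spent 8 h in 1% oxygen followed by 2 h of reoxygenation. Both groups grew in DMEM with fetal bovine serum. The vector and H/R went together, so their effects cannot be told apart. The remaining 4 libraries, H/R with a LITAF vector, entered the fit for its low-count filter, scaling and estimate of spread and are not described. The labels call the replicates biological without saying that each came from its own culture. The p-values below speak only of how these libraries vary, which in the main fit include the 4 of the LITAF group. Counts varied more between control libraries than between H/R libraries. For pairs within a group, the chi-square per degree of freedom, a measure of that spread, was 44.3 to 52.8 in control. In H/R it was 3.49 to 13.7. The fit shared its estimate of spread across the groups.

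Lack of oxygen slows respiration and the folding of secreted proteins, and the return of oxygen brings oxidants. Cells answer by cutting most protein synthesis, switching on protective genes and halting division. Heat shock, unfolded protein, antioxidant, hypoxia, glycolysis and immediate early genes are the classic readouts and were set aside here, save for glycolysis enzymes among the muscle and general isoform pairs. What follows describes the genes and functions beyond them.

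Each control library is not independent of the H/R library that bears the same number, which bears on every p-value below. Within each group, a library's deviation from its group mean was taken for 11398 genes. Between a control library and the H/R library of its number, the Pearson correlation of these deviations over all genes was 0.302 to 0.568, with a median of 0.421. Pairs with different numbers gave -0.269 to -0.0293. The same held where counting noise is large, in 1160 genes with 1 to 10 mean counts in both groups. There the control deviations followed those of the same-number H/R library with a slope of 0.425, against -0.164 to -0.125 for other numbers. Deviations cancel out within a group, so positive same-number values make those of other numbers negative on average. In the 1160 genes 19.0 to 26.8% of counts were equal between same-number libraries and 9.66 to 14.0% between others. Fractional estimated counts were 2.85 to 3.40% of control values against 11.4 to 12.4% of H/R values. How the control values came to follow those of H/R was not tested, and differences in how the 2 groups' values were made cannot be told apart from H/R.

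**Figure D1:**
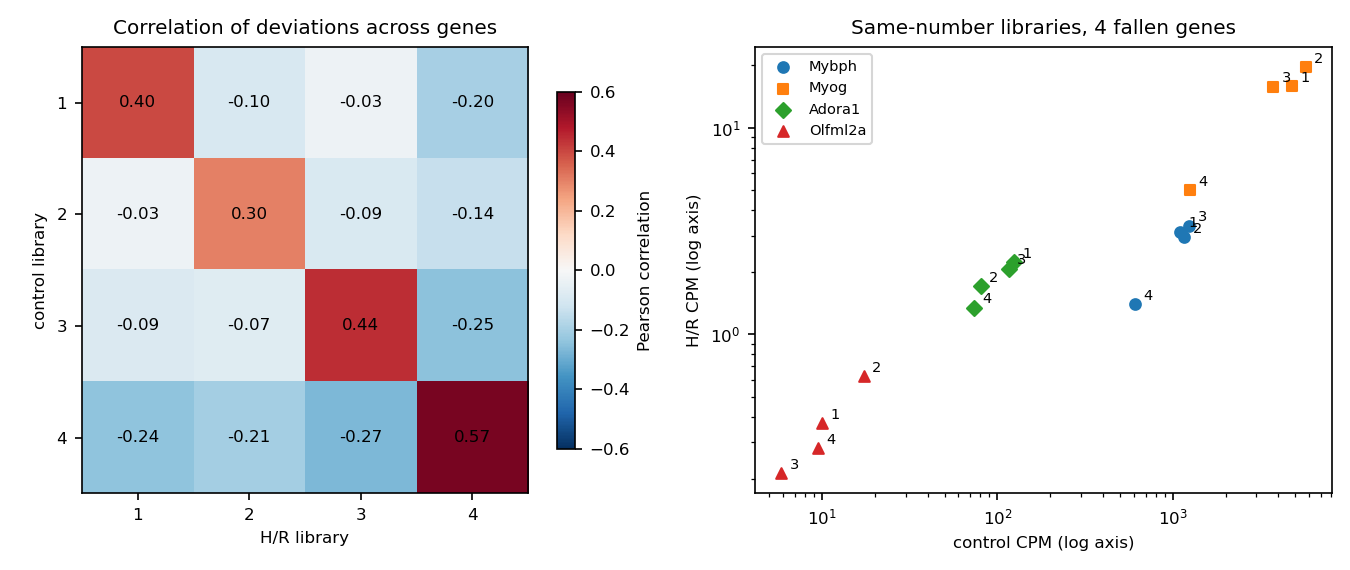
Left, Pearson correlation across 11398 genes between the deviations of each control library (rows) and each H/R library (columns) from their group means; the 4 same-number pairs on the diagonal lie between 0.30 and 0.57 and all others are below 0. Right, CPM of 4 genes that fell, control on the horizontal and H/R on the vertical axis, both log scale, with library numbers beside the points; library 4 is the lowest in both groups for Mybph, Myog and Adora1.

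Levels are given as CPM, read counts scaled to the library's total (with TMM factors), and changes as log2 fold change ± SE. Totals were 19.2 to 20.7 M counts in control and 16.9 to 18.1 M in H/R libraries, and genes above 0 numbered 12531 to 12879 and 13313 to 13477. By edgeR's quasi-likelihood test with Benjamini-Hochberg adjustment, 3620 of 11398 genes rose (31.8%) and 3628 fell (31.8%) at an adjusted p under 0.05, together 7248 genes (63.6%). By at least 2-fold, 1091 rose (9.57%) and 1474 fell (12.9%). In 6677 genes (58.6%) all 4 libraries of one group lay above all of the other. The median log2 change over all genes was 0.0073, so about the same number of genes stood on each side. Bulk values cannot tell fewer cells of a type from less RNA per cell. "Rose" and "fell" below mean an adjusted p under 0.05 in this test over all genes.

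The largest changes were sought among genes outside the classic lists that rose or fell, with a mean log2 CPM of at least 2. Only genes with no overlap in CPM between the groups and no placeholder symbol were eligible, so their separation follows from the choice. The largest rises were in Akr1b10, Uspl1, Casp4, Dedd2 and Cdk2ap2, and the largest falls in Mybph, Myog, Pln, C4b and Adora1. Akr1b10 codes for an aldo-keto reductase that clears reactive aldehydes. Its control libraries stood at 24.5, 33.4, 24.9 and 40.9 CPM and its H/R libraries at 309, 315, 317 and 350 CPM. All 4 H/R values lay far above the highest control value. The change was log2 3.38 ± 0.18 (adjusted p = 1.94e-10); Akr1b10 has close paralogs, so its counts are uncertain. Casp4, an inflammatory caspase that senses bacterial lipopolysaccharide inside the cell, went from 4.49, 5.22, 5.61 and 4.69 CPM to 35.7, 42.5, 40.1 and 43.1 CPM. The groups were apart by log2 3.01 ± 0.17 (adjusted p = 2.31e-10). Dedd2, which codes for a death effector domain protein, rose by log2 2.97 ± 0.15, from 2.43 ± 0.478 to 19.1 ± 2.06 CPM (SD, n = 4 each). Stbd1, a glycogen-binding protein, rose from 22.2 ± 3.45 to 162 ± 6.42 CPM. Uspl1, a SUMO protease, and Cdk2ap2, a regulator of a cyclin-dependent kinase, rose 8.11-fold and 7.35-fold.

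Other large rises were in secreted factors and regulators of translation and stress. Eif4ebp1 codes for the repressor that keeps the cap-binding factor eIF4E from starting translation. It stood at 26.8, 32.2, 24.9 and 31.3 CPM in control and at 156, 158, 157 and 166 CPM in H/R. This is a 5.54-fold rise. Nupr1, a small chromatin protein induced by many stresses, was measured at 15.5, 15.8, 19.5 and 19.6 CPM in control and 91.7, 99.9, 105 and 87.8 CPM in H/R (log2 2.45 ± 0.11). Inhbe, the gene of the activin E subunit, rose from 2.24, 2.17, 2.52 and 2.21 CPM to 11.7, 13.6, 13.8 and 18.6 CPM (log2 2.65 ± 0.18). The cytokine gene Mif rose from 43.0 ± 5.79 to 234 ± 21 CPM and the microfibril gene Mfap5 from 3.26 ± 0.751 to 17.8 ± 0.919 CPM. Ficd, which codes for an enzyme that switches the chaperone BiP off and on, rose 5.34-fold, and H/R library 4, at 82.5 CPM, stood above the other H/R libraries at 57.8 to 59.6 CPM.

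Promoter sequences were read for these genes from RefSeq (GRCr8), as the 250 bases before the start. Of the 12 largest rises, 9 had an entry, and 2 of the 9, Nupr1 and Inhbe, held TGATGNAA on either strand, the element bound by ATF4 with C/EBP proteins. The same letters stood in 3.58% of all 27457 RefSeq promoters and in 2.00% of the 9395 promoters of genes tested. Both promoters are shown because they carry these letters, in capitals and on the reverse strand of the run, at chr1:190645902-190646151 (minus strand, Nupr1) and chr7:65064520-65064769 (minus strand, Inhbe), written 5′ to 3′ toward the gene.
Nupr1: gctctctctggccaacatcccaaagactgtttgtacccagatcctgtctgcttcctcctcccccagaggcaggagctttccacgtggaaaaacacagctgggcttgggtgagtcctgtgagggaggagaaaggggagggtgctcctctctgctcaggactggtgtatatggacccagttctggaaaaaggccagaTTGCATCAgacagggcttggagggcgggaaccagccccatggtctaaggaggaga
Inhbe: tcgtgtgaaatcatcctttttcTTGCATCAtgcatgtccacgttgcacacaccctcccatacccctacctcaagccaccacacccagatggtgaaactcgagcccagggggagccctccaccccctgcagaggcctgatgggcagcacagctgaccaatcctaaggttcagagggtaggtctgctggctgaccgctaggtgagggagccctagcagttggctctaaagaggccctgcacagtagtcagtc
The letters begin 55 bases before the start in Nupr1 and 228 before it in Inhbe. The E-box of MYOD and MYOG, CAGCTG, stood in 4 of the 10 promoters found for the 12 largest falls, in 3 of those 9 for the rises and in 12.8% of promoters of genes tested. A match is no evidence of binding.

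The 3 largest falls were in genes of muscle. Mybph, a myosin-binding protein of skeletal muscle, stood at 1101, 1162, 1240 and 613 CPM in control and at 3.14, 2.97, 3.36 and 1.40 CPM in H/R. Myog, the transcription factor myogenin that drives myoblasts to differentiate, went from 4763, 5730, 3728 and 1257 CPM to 15.9, 19.6, 15.8 and 4.99 CPM. In both genes library 4 was the lowest of its group on either side. Pln, the brake on the calcium pump of the sarcoplasmic reticulum, fell from 1021, 1128, 1026 and 1303 CPM to 3.35, 5.42, 3.84 and 4.6 CPM (log2 -8.02 ± 0.17, adjusted p = 1.11e-14). As a percentage of the control library of the same number, the H/R level was 0.229 to 0.285% for Mybph, 0.334 to 0.423% for Myog and 0.329 to 0.480% for Pln. The lowest library had the same number in both groups for 7 of the 12 largest falls and the highest for 6; for the 12 largest rises these counts were 5 and 3. What sets these low H/R levels was not tested.

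Adora1, an adenosine receptor that slows the heart, stood at 124, 80.6, 116 and 74.0 CPM in control and at 2.24, 1.71, 2.08 and 1.35 CPM in H/R. The complement gene C4b fell by log2 -6.56 ± 0.71, from 18.7, 1.61, 16.5 and 17.6 CPM to 0.0532, 0.114, 0.213 and 0.168 CPM. Control library 2 lay about 10 times below the other control libraries. Islr, a marker of stromal cells, showed the same pattern, at 15.5, 0.556, 13.9 and 13.2 CPM in control against 0.0532, 0.456, 0.427 and 0.112 CPM in H/R. Igfbp5, which binds insulin-like growth factors in muscle, fell 34.1-fold and the ferritin receptor gene Scara5 27.6-fold. Pik3ap1, Olfml2a, Arhgef37 and Tnik, the last a kinase of the Wnt pathway, fell 25.4-fold to 29.4-fold.

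**Figure D2:**
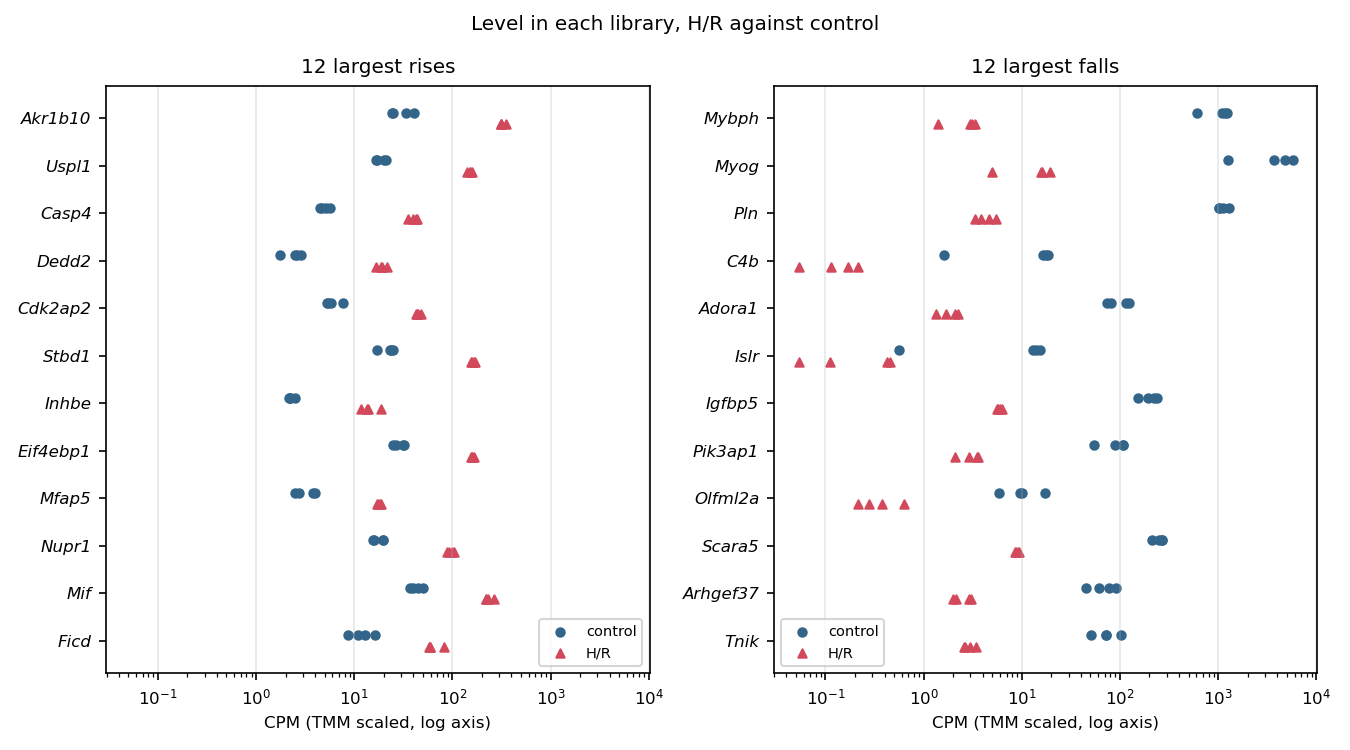
CPM (log axis) in each of the 4 control (circles) and 4 H/R (triangles) libraries for the 12 largest rises, left, and the 12 largest falls, right, in order of log2 fold change. No gene's groups overlap, which the choice of genes required. Control library 2 stands apart at the low end in C4b and Islr.

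In absolute amount, matrix genes led the falls. Col1a1, the collagen I alpha 1 chain, lost the most, from 38681, 37064, 28588 and 34793 CPM to 13517, 12695, 11906 and 12154 CPM. Col1a2, Thbs1, Col3a1, Ccn2 and the tubulin gene Tuba1b followed, with Col3a1 going from 7742 ± 1531 to 1236 ± 85.7 CPM. The largest gains in amount included translation genes. Eef1a1, the factor that brings aminoacyl-tRNA to the ribosome, rose from 3096, 4386, 4221 and 5253 CPM to 9713, 10108, 9795 and 9576 CPM. Eef2, Rps2, Vim and the collagen chaperone gene Serpinh1 also gained. Among genes above 500 CPM the smallest differences were in Mt-co1, Hmgn1, Cct6a, Sparc, Nbas and Rpl30l2 (whose paralogs make its counts uncertain), each within log2 -0.01 to 0.02 (SE 0.09 to 0.12). Sparc, a matrix protein that binds collagen, was at 2186 ± 338 CPM in control and 2174 ± 95.2 CPM in H/R. The 10 largest genes together held 11 to 13.0% of control counts and 8.13 to 8.56% of H/R counts.

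Functions were described through 36 gene lists, of whose members 1143 were tested; 362 rose and 405 fell. The lists are described by counts and medians and not tested as sets, and each count is to be read against the 31.8% of all genes that rose and the 31.8% that fell.

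**Figure D3:**
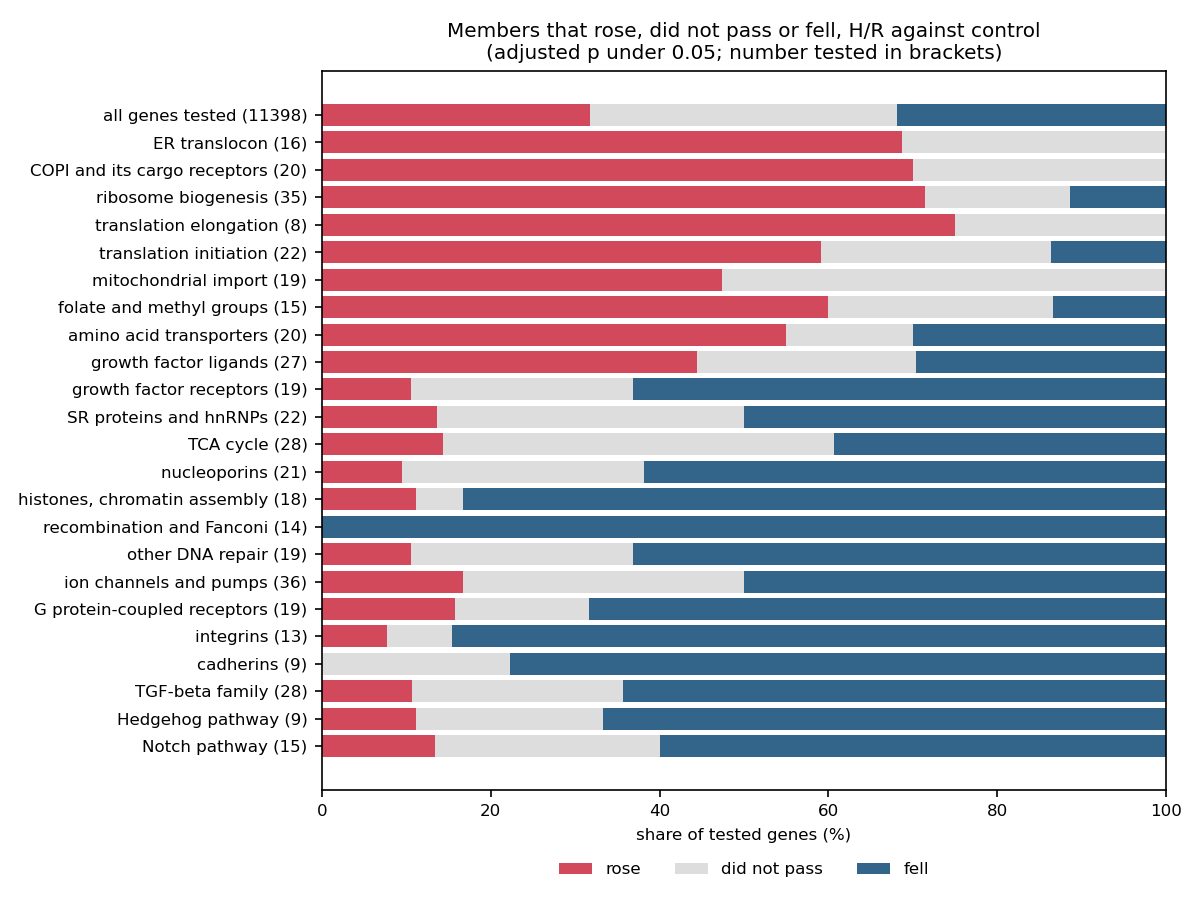
Share of the tested members (horizontal axis, %) that rose (red), did not pass (grey) or fell (blue) in 23 gene groups, with all 11398 genes in the top bar. Translocon, COPI, translation elongation and mitochondrial import groups have no member that fell, and all 14 recombination and Fanconi genes fell.

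Genes for making and exporting proteins rose more often than they fell. Proteins bound for the membrane or for secretion enter the endoplasmic reticulum (ER) through the SEC61 channel, and vesicle coats then move them to and from the Golgi. Of 16 translocon genes 11 rose and none fell (median log2 0.63). Sec61a1, the channel itself, was at 302, 306, 249 and 248 CPM in control and 594, 609, 598 and 593 CPM in H/R. That is log2 1.12 ± 0.10 (adjusted p = 1.07e-07). Ssr4, of the complex beside the channel, rose by log2 1.22 ± 0.12 and Sec61g by 1.10, while Srp14, Ssr1, Spcs1, Spcs3 and Srp54a did not pass; with the replicate block in the 8 libraries Srp54a did (log2 0.44, edgeR adjusted p = 0.00629). Of 17 glycosylation genes 8 rose and 2 fell (median 0.23). Uap1, which makes the sugar donor UDP-GlcNAc, rose from 21.2 ± 3.65 to 69.1 ± 3.76 CPM, and Alg8, a glucosyltransferase, fell by 1.37 on the log2 scale.

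The retrieval coat COPI, with its cargo receptors and regulators, had 14 of 20 genes that rose and none that fell (median 0.39), and the export coat COPII 4 of 10 that rose and 2 that fell (median 0.08). Arfgap3, which lets the COPI coat come off, went from 15.8, 30.2, 27.4 and 34.4 CPM to 96.1, 97.0, 92.6 and 98.4 CPM (log2 1.83 ± 0.18). The cargo receptor gene Tmed9 and Kdelr3, a receptor that returns ER proteins, rose by 0.93 ± 0.11 and 0.86 ± 0.12. In COPII, Sec31a rose by 0.80 and Sec24b fell by 0.52, a call lost with control 1 and 2 against H/R 3 and 4. Most of these shifts were under 2-fold. With control 1 and 2 against H/R 3 and 4, 7 COPI genes passed. Promoters with CCACG, the 3′ part of the ER stress response element, were 14 of 19 for the COPI group (73.7%), against 43.0% of genes tested and 29.5% of all. The whole element and its variant ERSE-II stood in 0 of these 19 promoters. ACGTG, the core of the hypoxia response element, stood in 11 of the 19 (57.9%), against 23.6% of genes tested. CCACG also stood in 25 of 33 ribosome biogenesis promoters (75.8%) and 5 of 9 of the largest rises (55.6%). The Tmed9 promoter is printed as an example with 3 copies in capitals (chr17:9039312-9039561, minus strand, RefSeq GRCr8).
Tmed9: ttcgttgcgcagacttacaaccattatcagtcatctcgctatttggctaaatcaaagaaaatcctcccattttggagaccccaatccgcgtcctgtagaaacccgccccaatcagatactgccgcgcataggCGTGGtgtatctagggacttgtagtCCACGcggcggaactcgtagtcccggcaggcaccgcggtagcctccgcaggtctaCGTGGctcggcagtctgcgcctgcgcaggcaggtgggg
SNARE and coat genes of vesicle fusion, 35 tested, split into 14 that rose and 7 that fell. Stx5, the Golgi SNARE, rose from 28.6 ± 3.98 to 89.8 ± 3.54 CPM, and Rab27a, a RAB of secretory granules, fell from 28.7 ± 2.22 to 9.66 ± 0.276 CPM.

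Ribosome biogenesis, the assembly of ribosomes in the nucleolus, had 25 of 35 genes that rose and 4 that fell (median 0.53). Gnl3, nucleostemin, stood at 63.8, 87.1, 42.5 and 38.1 CPM in control and 167, 173, 186 and 152 CPM in H/R. The control libraries spread about 2-fold, and all H/R values lay above them. Rrp9 rose by 1.27 ± 0.13, the assembly factor gene Rrs1 by 1.10 ± 0.11 and Ubtf, which opens ribosomal DNA to transcription, by 0.84 ± 0.10. The 4 that fell included the enzyme and its starter, Polr1a (the large subunit of RNA polymerase I, log2 -0.76 ± 0.10) and Rrn3 (-0.73 ± 0.09), with Utp20 and Ddx21. The fall of Utp20 was lost with control 1 and 2 against H/R 3 and 4, and that of Ddx21 without any 1 of H/R 1, 2 or 3 or control 2 or 4 (edgeR adjusted p = 0.0567 to 0.0614). CACGTG, the E-box of MYC, USF and TFEB, stood in 8 of 33 promoters of this list (24.2%), against 8.86% of genes tested and 6.18% of all, and also in 3 of 10 promoters of the largest falls. The Gnl3 promoter is shown for its copy 25 bases before the start, in capitals (chr16:6219783-6220032, minus strand, RefSeq GRCr8).
Gnl3: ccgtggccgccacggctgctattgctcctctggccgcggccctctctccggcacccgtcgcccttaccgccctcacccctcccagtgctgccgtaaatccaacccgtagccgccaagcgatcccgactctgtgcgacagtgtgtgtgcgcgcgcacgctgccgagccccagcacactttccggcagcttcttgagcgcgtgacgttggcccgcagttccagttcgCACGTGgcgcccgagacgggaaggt
Of the MYC network itself 3 of 12 genes rose and 6 fell. Mxd1, a MAX partner that opposes MYC, rose by 1.55 ± 0.15 and its relative Mxd3 fell by 2.31 on the log2 scale.

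Translation factors rose in 19 of 30 genes and fell in 3 (median 0.56). Of 8 elongation and release genes 6 rose, among them Eef1g (1080 ± 278 to 2429 ± 94.3 CPM), and the release factors Etf1 and Gspt1 did not pass. Eef2k, the kinase that blocks eEF2, rose by 1.34 ± 0.12. In initiation, Eif1, which helps pick the start codon, went from 233, 244, 246 and 126 CPM to 729, 739, 762 and 680 CPM. Of the eIF2 subunit genes, Eif2s1 (0.80) and Eif2s2 (1.34) rose and Eif2s3 (0.01) did not pass, and Eif2b3 of the exchange factor rose by 1.68 ± 0.14. The scaffold gene Eif4g1 fell from 1180, 972, 1052 and 960 CPM to 559, 535, 530 and 593 CPM. The cap-binding gene Eif4e was at log2 -0.16 and did not pass, beside the rise of its repressor Eif4ebp1 and a fall of Eif4ebp2 (-0.85 ± 0.12).

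Protein disposal and RNA handling moved in both directions. Ubiquitin genes and the enzymes that load it rose in 9 of 15 cases and fell in 4. Ubb, a polyubiquitin gene, rose from 500 ± 90.0 to 1406 ± 62.7 CPM and Ube2j1, an ER enzyme, by 1.22 ± 0.11. Ube2t, which acts in Fanconi repair, fell by 1.58 on the log2 scale, and Fbxo32, the muscle ligase atrogin-1, fell from 17, 12.2, 20.4 and 11.6 CPM to 2.34, 2.57, 2.61 and 2.30 CPM. Of 22 SR protein and hnRNP genes, which choose splice sites, 3 rose and 11 fell; with upper-quartile scaling 6 rose and 5 fell, so this balance depends on the scaling. Hnrnpa2b1 fell from 1307 ± 168 to 658 ± 57.9 CPM. Clk1, a kinase of SR proteins, rose from 58.3, 54.4, 50.1 and 33.6 CPM to 141, 132, 141 and 118 CPM.

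Genes of genome maintenance fell. Homologous recombination repairs broken DNA from a sister copy, and the Fanconi proteins clear crosslinks. All 14 genes of this group fell, each by more than 2-fold, with a median of log2 -2.11. Fancb, of the Fanconi core complex, fell from 164, 148, 116 and 124 CPM to 14.9, 14.9, 14.8 and 13.2 CPM. Fancd2, which marks the crosslink, fell from 203 ± 7.79 to 44.5 ± 3.43 CPM, and Brca1 and Brca2 by 2.11 and 1.74 on the log2 scale. No library of either group overlapped the other in any of the 14, a separation that 58.6% of all genes tested also showed. In repair by mismatch, excision and end joining 12 of 19 genes fell and 2 rose (median -0.77); the difference between the 2 groups was not tested. Neil3, a DNA glycosylase, fell by 2.03 on the log2 scale, whereas Ercc1, a nuclease subunit of excision repair, rose from 10.4 ± 1.11 to 23.7 ± 1.67 CPM.

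Chromatin and the nuclear pore were examined next. Of 18 histone and chromatin assembly genes 15 fell and 2 rose (median -1.01). Asf1b, which hands histones to new DNA, went from 201, 212, 212 and 235 CPM to 41.5, 41.9, 42.2 and 48.5 CPM. Chaf1a, of the assembly factor CAF-1, fell by 1.59 and the lamin gene Lmnb1 by 1.69 on the log2 scale, while the histone variant gene H2aj rose by 1.16 ± 0.12. Of 41 chromatin modifier genes 11 rose and 14 fell, with a median whose sign depends on the scaling (log2 -0.02, and 0.11 with library totals). For methylation 3 of 16 rose and 7 fell, and for acetylation 3 of 14 rose and 5 fell. Dnmt1, which copies DNA methylation to new strands, fell from 537, 635, 401 and 618 CPM to 137, 135, 123 and 146 CPM, and its guide Uhrf1 from 546 ± 83.4 to 165 ± 10.6 CPM. Among 11 histone demethylases 5 rose and 2 fell. Kdm4b, which removes methyl groups from histone H3, rose from 4.64, 5.00, 4.94 and 6.96 CPM to 21.1, 20.8, 22.3 and 25.4 CPM, and Kdm4a by 0.84 ± 0.14. The histone deacetylase gene Hdac1 fell by 1.10 on the log2 scale. Of 21 nucleoporins, the parts of the nuclear pore, 13 fell and 2 rose (median -0.59), with Nup93 of the inner ring at log2 -1.21 ± 0.09. The import receptor gene Kpna2 fell from 499, 390, 443 and 357 CPM to 119, 111, 113 and 109 CPM, while its relative Kpna1 rose by 0.99 ± 0.15.

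**Figure D4:**
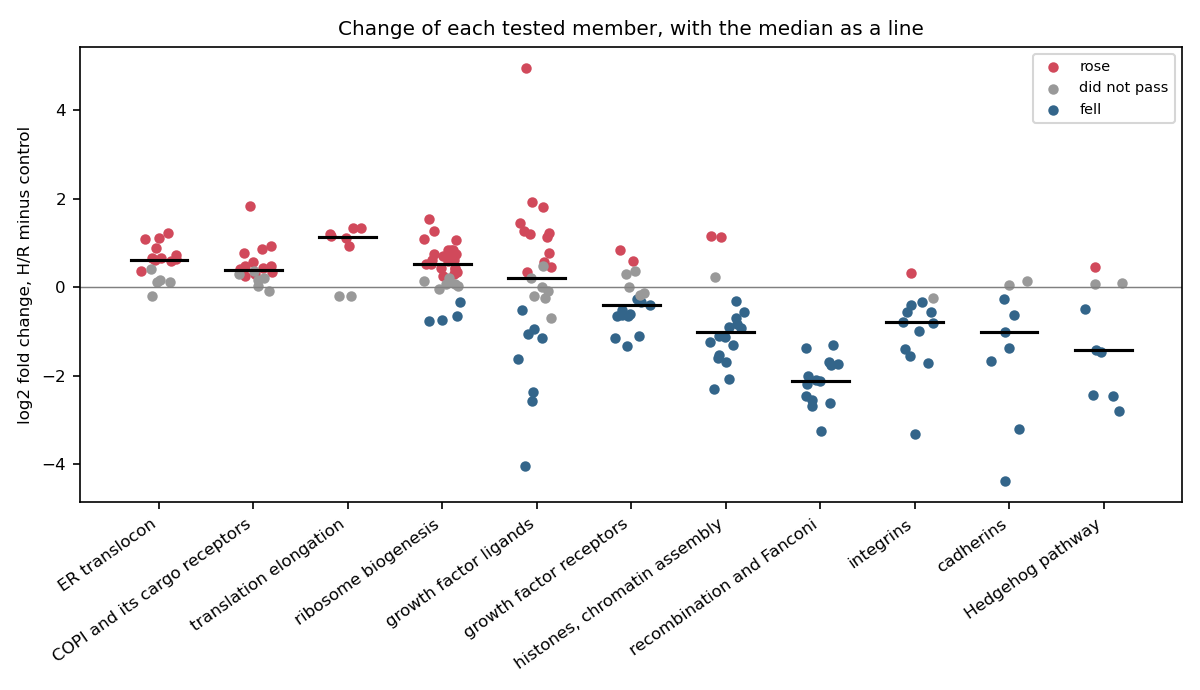
Log2 fold change (H/R minus control, vertical axis) of each tested member of 11 gene groups, coloured by call, with the group median as a black line. Translocon, COPI, elongation and ribosome biogenesis medians lie above 0; chromatin assembly, recombination, integrin, cadherin and Hedgehog medians lie below 0, and growth factor ligands spread from -4.05 to 4.96.

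At the cell surface, adhesion genes were mostly lower. Integrins hold cells to the matrix; 11 of 13 fell and 1 rose (median -0.79). Itga8, a receptor for nephronectin and fibronectin, went from 929, 672, 649 and 867 CPM to 78.8, 70.5, 76.7 and 87.1 CPM. Itga10, Itga4 and Itga1 fell by 1.72, 1.55 and 1.40 on the log2 scale, and Itga3 rose by 0.32, a call lost without H/R 4 (edgeR adjusted p = 0.0804). Of 17 integrin adapter genes, whose proteins act inside the cell, 3 rose and 8 fell (median -0.18). Fermt2 and Ilk were among those that rose, by 0.81 ± 0.14 and 0.65 ± 0.12. Of 17 cadherins present 9 were tested, of which 7 fell and none rose (median -1). Over the alternative fits this median ran from -1.36 to 0. Fat4, a giant cadherin that signals to neighbours, stood at 241, 185, 200 and 215 CPM in control and 9.42, 8.67, 11.5 and 10.9 CPM in H/R. Cdh11, a mesenchymal cadherin, fell from 62.6 ± 7.70 to 6.82 ± 1.05 CPM, while Cdh2, N-cadherin, was at log2 0.13 and did not pass. Of 23 other junction and adhesion genes 7 rose and 11 fell. Vcam1, which binds leukocyte integrins, fell by 2.40 on the log2 scale, while the desmosome gene Pkp1 rose from 171 ± 33.1 to 555 ± 53.9 CPM, and the hyaluronan receptor gene Cd44 rose by 0.98 ± 0.09.

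Growth factor genes and their receptors gave different counts. Of 27 ligand genes 12 rose and 8 fell (median 0.22), and of 19 receptor kinase genes 2 rose and 12 fell (median -0.39). The difference between the 2 groups was not tested. Fgf21, a stress hormone of metabolism, had 2 counts in each control library and 57 to 75 in each H/R library, a ratio of 33.1 (95% exact interval 16.5 to 77.4, counting error only). Efna1, an ephrin, rose from 1.34 ± 0.199 to 4.71 ± 0.404 CPM. Among the falls, Angpt1, which steadies blood vessels, stood at 25.3, 17.7, 28.1 and 17.9 CPM in control and 1.22, 0.970, 2.03 and 1.12 CPM in H/R. Angptl2 and the macrophage growth factor gene Csf1 fell by 2.37 and 1.62 on the log2 scale. Of the receptors, Flt1, a VEGF receptor, fell from 96.8 ± 11.8 to 38.8 ± 1.43 CPM, Met fell by 0.65, and Epha2 rose from 142 ± 6.49 to 254 ± 10.2 CPM.

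Pathways that guide development and repair are given next. In the TGF-beta family 18 of 28 genes fell and 3 rose (median -0.49), and 11 fell with control 1 and 2 against H/R 3 and 4. Among ligands, Mstn, myostatin, which limits muscle mass, fell from 10.4, 1.56, 10.9 and 7.60 CPM to 0.692, 0.399, 0.747 and 0.673 CPM, Gdf11 by 1.48 and Tgfb3 by 1.45 on the log2 scale. Gdf15, a stress cytokine, had 3 to 5 counts in the control and 21 to 33 in the H/R libraries, a ratio of 7.40 (95% exact interval 4.29 to 13.7, counting error only). The activin and myostatin inhibitor gene Fst fell from 383, 388, 318 and 255 CPM to 114, 119, 105 and 96.9 CPM, and its relative Fstl1 from 1943 ± 54.4 to 748 ± 22.8 CPM. The receptor gene Tgfbr2 fell by 1.04 and the inhibitory SMAD gene Smad7 rose by 0.62 ± 0.11. Hedgehog signals reach the nucleus through the GLI factors, and 6 of 9 tested genes fell with 1 that rose. Their median was -1.42, and -1.45 to -0.46 over the alternative fits. Gli3 went from 187, 201, 196 and 184 CPM to 27.7, 25.9, 27.9 and 28.7 CPM, Gli2 from 218 ± 19.5 to 40.5 ± 0.562 CPM and the co-receptor gene Cdon from 175 ± 19.8 to 31.7 ± 2.32 CPM, while the receptor gene Ptch1 was at 0.11 and did not pass.

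In the Notch pathway 9 of 15 fell and 2 rose; 7 fell with library totals or upper-quartile scaling, and 5 with control 1 and 2 against H/R 3 and 4. The protease gene Adam10 fell by 1.78 and Notch2 by 0.64 on the log2 scale, and the ligand gene Jag1 rose by 0.70 ± 0.15. The Wnt pathway was mixed, with 11 of 28 that fell and 7 that rose. The receptor gene Fzd1 fell from 71.1 ± 16.3 to 19.5 ± 0.883 CPM, and Fzd2 rose from 45.7 ± 7.45 to 79.0 ± 2.20 CPM.

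G protein-coupled receptors and ion channels, which set how heart muscle responds to hormones and current, fell more often than they rose. Of 33 receptors present 19 were tested, of which 13 fell and 3 rose (median -0.79, and -0.87 to -0.36 over the alternative fits). F2r, a thrombin receptor, stood at 1355, 1734, 1929 and 2036 CPM in control and 378, 353, 373 and 344 CPM in H/R. Ackr3, a scavenger of CXCL12, fell from 532 ± 48.3 to 121 ± 9.01 CPM and Adrb1, the beta-1 adrenergic receptor, by 1.45 on the log2 scale. Of 3 that rose, Ptafr did so at adjusted p = 0.0335 and did not pass with the replicate number as a block (adjusted p = 0.217), nor without H/R 1 or 4 or control 1, 3 or 4 (0.0624 to 0.109). Of 36 channels, pumps and exchangers 18 fell and 6 rose (median -0.31). Slc8a1, the sodium-calcium exchanger of heart muscle, went from 244, 218, 217 and 218 CPM to 57.7, 55.9, 57.2 and 61.6 CPM. Kcnd3, of the transient outward potassium current, fell from 28.4 ± 6.73 to 3.52 ± 0.453 CPM and Atp1b1, of the sodium pump, by 1.92 on the log2 scale. Orai1, the pore for calcium entry when stores empty, rose by 1.04 ± 0.16, while its sensor gene Stim1 fell by 0.83.

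Amino acid transport and the folate cycle supply building blocks for proteins, nucleotides and methyl groups. Of 20 amino acid transporter genes 11 rose and 6 fell. Slc3a2, the shared heavy chain of several transporters, rose from 155, 146, 147 and 183 CPM to 931, 997, 1014 and 1116 CPM. Slc6a9, a glycine transporter, went from 14.0, 20.8, 17.6 and 21.9 CPM to 79.3, 89.0, 94.8 and 103 CPM. Slc1a3, a glutamate and aspartate transporter, went the other way, from 344, 292, 319 and 292 CPM to 15.1, 14.8, 14.3 and 11.9 CPM (log2 -4.47 ± 0.13, adjusted p = 3.27e-13). In folate and methyl group metabolism 9 of 15 rose and 2 fell (median 0.79). Psph, the last step of serine synthesis, rose from 43.5 ± 7.02 to 150 ± 7.83 CPM and Nnmt, which spends methyl groups on nicotinamide, from 6.77 ± 1.15 to 28.8 ± 1.72 CPM. The mitochondrial folate genes Mthfd2 (186, 218, 135 and 210 to 379, 403, 382 and 419 CPM), Mthfd1l (log2 1.48) and Shmt2 (0.79 ± 0.14) rose. The cytosolic gene Mthfd1 fell from 385 ± 23.9 to 111 ± 6.70 CPM, and Shmt1, at -0.28, did not pass, though it fell with the replicate block (log2 -0.27, edgeR adjusted p = 0.0304). Of 9 polyamine genes 3 rose and 1 fell, Arg2, an arginase, at 24.5, 0.611, 25.6 and 25.6 CPM in control and 1.22, 1.77, 1.97 and 2.19 CPM in H/R. Control library 2 lay below every H/R library, as in C4b and Islr the lowest of its group, and Arg2 did not pass with control 1 and 2 against H/R 3 and 4.

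Mitochondrial genes are given by role, and differences between roles were not tested. Protein import into mitochondria had 9 of 19 genes that rose and none that fell (median 0.27), with Pam16, of the import motor, going from 4.59, 4.61, 4.48 and 4.15 CPM to 13.2, 14.1, 13.5 and 13.2 CPM. Of 10 fusion and fission genes 2 rose and 4 fell, and of 9 for mitochondrial DNA 5 rose and 1 fell. The TCA cycle and its feeder enzymes had 4 of 28 that rose and 11 that fell (median -0.17, and -0.05 with library totals). A smaller share rose than the 31.8% of all genes that did, and a somewhat larger share fell than their 31.8%. Pc, pyruvate carboxylase, which refills the cycle, fell from 128, 117, 112 and 166 CPM to 32.3, 33.1, 31.1 and 39.5 CPM, and Ogdh from 233 ± 46.5 to 108 ± 8.39 CPM. In fatty acid oxidation 9 of 31 rose and 11 fell, and with library totals 14 rose and 8 fell, so its balance depends on the scaling. Lpl, the lipase that frees fatty acids, fell from 20.9 ± 4.83 to 2.60 ± 0.311 CPM, whereas Pdk4, which closes the way from pyruvate into the cycle, rose from 1.02, 3.33, 0.412 and 0.755 CPM to 8.04, 7.19, 7.20 and 6.73 CPM. Of selenoprotein genes 4 of 10 rose and 5 fell. Selenok and Selenom, both of the ER, rose by 1.63 ± 0.12 and 1.62 ± 0.14, and the secreted carrier gene Selenop fell from 50.7 ± 9.63 to 5.85 ± 1.04 CPM.

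Regulators of growth and identity are described last. Of 25 genes of the mTOR and AMPK circuit, which matches growth to nutrients, 11 rose and 6 fell (median 0.34). Deptor, an mTOR inhibitor, went from 1479, 985, 1067 and 1214 CPM to 148, 144, 158 and 155 CPM, and Mtor from 66.2 ± 2.73 to 34.0 ± 1.74 CPM. Rragd, Lamtor1 and Flcn, which work at the lysosome surface, rose by 1.43, 1.17 and 1.08. Of 30 nuclear receptor genes 10 rose and 10 fell. Nr2f2, COUP-TFII, a factor of vein and atrial identity, fell from 308, 304, 283 and 323 CPM to 64.3, 55.1, 56.6 and 70.2 CPM, and the clock repressor gene Nr1d1 rose from 9.45 ± 0.880 to 28.2 ± 0.855 CPM. Of 43 homeobox and mesenchymal factor genes 12 rose and 14 fell. Snai2, which represses epithelial genes, fell from 140 ± 22.5 to 29.2 ± 2.98 CPM and Prrx1 by 1.63 on the log2 scale, while Twist1 rose by 0.66 ± 0.12. Of 17 genes of coagulation, fibrinolysis and complement 6 rose and 6 fell. Serpine2, the secreted protease inhibitor protease nexin-1, fell from 84.2, 72.0, 77.3 and 65.5 CPM to 7.67, 5.70, 6.40 and 6.34 CPM, and Plaur, the urokinase receptor gene, rose from 34.9 ± 4.39 to 98.6 ± 3.58 CPM.

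The tissue label was compared with markers of cell types. Of the 13 cardiomyocyte markers present, 9 were under 1 CPM in both groups, among them Myh6, Myh7 and Ryr2, and Tnni3 and Tbx20 were at 0 in all 8 libraries. Of the 4 tested, Nkx2-5 rose from 6.84 ± 1.64 to 16.5 ± 2.84 CPM and Tnnt2, Gata4 and Hand2 fell, Tnnt2 from 304 ± 99.3 to 67.9 ± 16.8 CPM. The summed cardiomyocyte markers were 272 to 508 CPM in control and 119 to 149 CPM in H/R libraries. Skeletal muscle markers summed to 2873 to 7688 CPM and 539 to 667 CPM, with 7 of 14 that fell and 1 that rose. Of the 19 present, 9 were under 1 CPM in both groups, and Myog and Mybph made up most of the control sum. Smooth muscle markers summed to 4859 to 5804 CPM in control and 6985 to 7271 CPM in H/R, and their members divided. Cnn1, calponin, stood at 39.6, 55.1, 53.8 and 70.2 CPM in control and 148, 155, 155 and 176 CPM in H/R, and Tagln, Acta2, Actg2 and Des also rose. Myocd, the coactivator of smooth muscle and heart genes, fell from 544, 527, 621 and 485 CPM to 104, 100, 110 and 107 CPM, with Mylk and Myh11. Fibroblast markers summed to 61547 to 77249 CPM and 27016 to 30087 CPM, and 5 of 7 fell while Vim rose. Col1a1, Col1a2 and Col3a1 made up most of these sums. Of the 11 present, 4 were under 1 CPM in both groups, with Dcn and Fap at 0 in all 8 libraries. Endothelial, leukocyte, epithelial and neural markers summed to at most 40.4 CPM in any library, and the endothelial sum was 11.3 to 14.7 CPM in control and 21.1 to 25.7 CPM in H/R, where Egfl7 rose. The part of cell makeup in the results above was not tested.

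Several enzymes have a muscle form and a general form, and the ratio of the 2 genes' CPM (with 0.5 CPM added) was compared by an exact permutation test, two-sided. Both genes were tested for 10 of 22 pairs, and the smallest p that 4 against 4 libraries allow, 0.0286, gives an adjusted p of 0.0408 over the 10 pairs. The ratio was lower in H/R for 3 pairs and higher for 4, all at that p. For phosphofructokinase, Pfkm went from 502, 521, 475 and 379 CPM to 167, 164, 159 and 132 CPM and Pfkl from 27.0, 18.5, 19.6 and 19.6 CPM to 128, 126, 113 and 133 CPM. Their log2 ratio fell from 4.44 ± 0.279 to 0.309 ± 0.218 (SD), so the 2 forms came near to parity. The ratios Pgam2 to Pgam1 and Atp2a1 to Atp2a2 moved by -2.08 and -0.76 on the log2 scale. Pgam2 stood at only 2.42 CPM in control and 0.599 CPM in H/R, so the size of its shift depends on the 0.5 CPM added. Cox6a2, the heart and muscle subunit of cytochrome c oxidase, gained 1.39 on Cox6a1 but stood at only 2.31 ± 0.152 CPM in H/R. Pygm gained 1.69 on Pygb, Cpt1b 1.14 on Cpt1a and Slc25a4 0.57 on Slc25a5. Pygb and Cpt1a themselves fell (log2 -0.68 and -0.77), and Cpt1b on its own did not pass (log2 0.63). Pygm and Cpt1b were below 1.2 CPM in every library. The sizes of their shifts, and of that of Cox6a2, also depend on the 0.5 CPM added. Without any 1 of the 4 H/R libraries none of the 7 passed: Slc25a4 to Slc25a5 and Atp2a1 to Atp2a2 had an exact permutation p of 0.0571, and the other 5 stood at the smallest p, adjusted to 0.0571. The pairs Eno3 and Eno1, Flnc and Flna, and Cav3 and Cav1 did not pass.

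**Figure D5:**
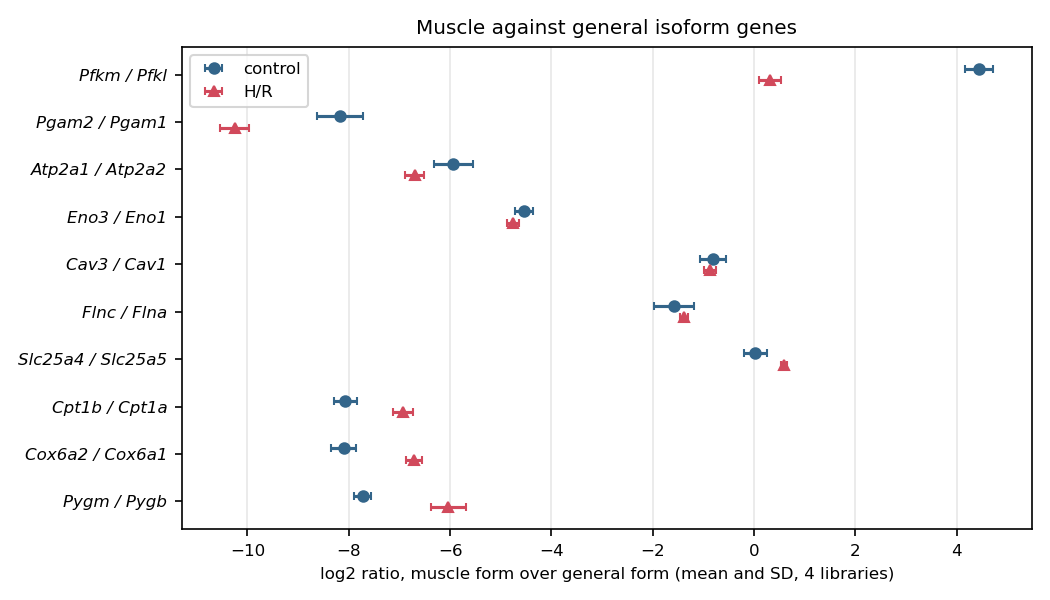
Log2 ratio of the muscle gene over the general gene (horizontal axis) in control (circles) and H/R (triangles), mean and SD over 4 libraries, for the 10 pairs tested. Pfkm over Pfkl moves from 4.44 to 0.31, the largest shift, and the error bars of the 3 pairs that did not pass overlap.

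Few genes were counted in one group alone. With at least 10 counts in each library of one group and 0 in all of the other, 2 genes were found in H/R only and 0 in control only. Ociad2 had 26, 15, 13 and 27 counts in H/R, at least 28.0-fold higher against a floor of 3 counts over the control group (0.0397 CPM), and the cyclin gene Ccno had 18, 13, 13 and 16 counts, at least 20.7-fold higher. In 72 gene IDs the table held rows that differed in the control columns and were the same in all H/R columns, and these genes are not among the results above. With either the first or the last row used, 28 rose both times, 12 fell both times and 14 passed neither time. The call changed with the row for 12 genes, and 6 were not tested with one or both rows. Chek1, a checkpoint kinase gene, was at log2 -0.25 (adjusted p = 0.0726) with the first row and fell by 0.51 (adjusted p = 0.0001) with the last.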

How the data were processed

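Poly(A) RNA of 12 H9C2 libraries was sequenced, 4 in each of 3 groups. The deposited values are estimated counts per gene, which the authors describe as raw read counts at gene level, per the file headers, and not all are whole numbers. The submitters' processing notes name DESeq2 and edgeR; for the aligner, the build and strand, nothing was given in the sources used here. Values were rounded. Of 16204 rows, IDs repeated in identical rows were counted once and 72 IDs with differing rows were left out, which kept 16002 gene IDs. The main test was edgeR 4.0.16 (R 4.3.3, limma 3.58.1), a quasi-likelihood F-test with TMM scaling over all 12 libraries and 1 mean per group. Genes passed filterByExpr (11398), p-values were adjusted by Benjamini-Hochberg over all of them at 0.05, and each SE is the log2 fold change divided by the root of F. The common biological coefficient of variation was 14.5%. On counts simulated for this comparison over 11292 genes, true changes of 4-fold were called in 66 of 67 cases, of 2-fold in 64 of 66, and of 1.5-fold in 33 of 65, and 4.68% of calls were false. The simulated libraries were independent of each other, had the same spread in every group and held far fewer changed genes than were called here. These rates therefore do not describe the real comparison, where same-number libraries are linked.

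Control and H/R libraries share replicate numbers, and all 4 same-number correlations of deviations exceeded 0.1 (0.302 to 0.568), so a block on the number was fitted as an alternative. Others were the 8 libraries alone, DESeq2 1.42.0, library totals, upper-quartile scaling, no filter, whole values only, either row of doubled IDs, pairs of libraries with different numbers, and each library left out. Promoters came from RefSeq (GRCr8) and 17 motifs were searched on both strands. Python 3.11.15 was used with pandas 2.3.3, numpy 2.4.6 and matplotlib 3.10.9. The members and gene lists were chosen with earlier results of these data known. Named genes include the 12 largest rises and falls with a mean log2 CPM of at least 2. For these the rule also asked for an adjusted p under 0.05, no overlap between the groups, no placeholder symbol and no place in the classic lists. Also named are up to 3 rises and 3 falls with the smallest p per list, and the 6 largest changes in CPM each way. The 6 least changed above 500 CPM, markers, called isoform pairs and genes detected in 1 group complete the rule. Other members were named to state what a role did, and these and the printed promoters were chosen after their values were seen. A few members are not reported here.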

Additional observations from a re-analysis of the deposited data

Results flagged for a closer look

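In 84 groups of 4 libraries (42 genes in both groups), 7 held 1 library whose gap to the next took more of the group's range than the 95% critical value of Dixon's test allows, where chance gives about 1 in 20. Ficd was highest in H/R library 4, at 82.52 CPM against 57.83 to 59.6 CPM in the others. C4b was lowest in control library 2, at 1.612 CPM against 16.47 to 18.66 CPM. Islr was lowest in the same library, at 0.5557 CPM against 13.16 to 15.5 CPM. Serpinh1 was highest in control library 3, at 3110 CPM against 2518 to 2601 CPM, and Tuba1b in control library 1, at 9884 CPM against 7760 to 7891 CPM. Mt-co1 was lowest in H/R library 4, at 10500 CPM against 12780 to 13120 CPM. Nbas was highest in that library, at 1032 CPM against 917.1 to 927.9 CPM.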

How the results depend on the processing

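The 7248 calls were 7564 with the replicate block in 12 libraries and 8032 with it in the 8, and 5390 to 7444 under the other fits at the same threshold. A fold of at least 2 left 2565 calls, and 245 of the 767 calls among list members. Leaving out 1 library gave 6768 to 7224 calls and 708 to 767 among list members. Library totals and upper-quartile scaling moved the median of all genes by 0.127 and 0.116 on the log2 scale, and the share of calls that rose from 49.9% to 59.0% and 58.1%. Of 244 genes chosen by the naming rule 238 were called, and 4 of these lost the call without 1 library, 21 under any alternative. The rule took mostly called genes with a small p or a large change, so these counts do not describe the 7248 calls. Beside Ptafr, Srp54a, Shmt1 and Cpt1b, the replicate block changed no call of a gene named that its fit tested. Islr was not tested in the block fit of the 8 libraries. The isoform calls, 7 of 10 pairs, became 0 with the replicate block (sign flips of 4 same-number differences, whose smallest p is 0.125) and 0 to 8 without 1 library. The 0 came without each of the 4 H/R libraries, where 5 pairs stayed at the smallest p the test allows. Genes detected in 1 group only numbered 2, 3 at 5 counts, 0 at 20 counts and 2 to 3 without 1 library. Depth of 16.9 to 20.7 M counts leaves genes of a few counts, such as Fgf21 in control, with wide intervals.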

Other observations

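Several functions not described above moved in both directions. Of 36 genes for sphingolipid and phospholipid synthesis 16 rose and 4 fell (median log2 0.26). Agpat2, which makes phosphatidic acid, rose from 5.12 ± 1.42 to 15.4 ± 1.54 CPM (SD, n = 4), and Gpam, an enzyme at the first step of glycerolipid synthesis, fell from 63.0 ± 6.24 to 26.4 ± 1.16 CPM. Of 29 genes of the primary cilium, the antenna through which Hedgehog signals pass, 8 rose and 12 fell (median -0.16). Arl3, a GTPase that delivers lipid-modified proteins to the cilium, rose from 25.1 ± 4.16 to 74.7 ± 3.35 CPM, and Ift80, of the transport trains inside it, fell from 38.0 ± 8.88 to 17 ± 1.71 CPM.

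Of 26 actin-binding genes 9 rose and 7 fell. Myh10, a non-muscle myosin heavy chain, fell from 475 ± 70.5 to 178 ± 4.02 CPM. Of 27 genes of microtubules and motors 7 rose and 10 fell. Tbcb, a tubulin folding factor, rose by log2 1.60 ± 0.12 and Map4 fell by 0.67 on the log2 scale.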
